A study of Mus musculus with 6 samples.

Results

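S-phase cells, named here for their RNA of DNA replication genes, were described in 6 populations of cultured mouse muscle-derived stem/progenitor cells (MDSPCs). The data hold no measure of DNA synthesis, so the name rests on RNA alone. A cell was counted as a member when its unique molecular identifiers (UMIs, the tags that let each RNA molecule be counted once) met limits on 2 sums. The S sum, over Mcm5, Mcm2, Mcm4, Mcm6, Pcna, Gins2, Rrm2, Cdc6, Ccne2 and Clspn, had to be at least 8 per 10000 UMIs. The mitotic sum, over Top2a, Cdk1, Ube2c, Cenpf, Mki67, Ccnb2, Cdc20, Birc5, Tpx2 and Hmmr, had to be under 15 per 10000. Of 62849 deposited barcodes, 60325 had at least 5000 UMIs and under 15% mitochondrial UMIs, and 6749 of these (11.2%) met both limits. Cells at or over the mitotic limit form the mitotic class (26099 cells), and cells under both limits are called low in both sums (27477 cells). "Other cells" are these latter classes together, always from the same population. The mitotic class, also written mitotic cells, is named for its sum and is not a count of cells in mitosis. By population 33.0% to 49.2% of it also reached the S limit, so the members are not all cells with that much S RNA.

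MDSPCs are skeletal muscle cells enriched by preplating on collagen-coated flasks, in which cells slow to attach are carried forward, and they were kept in proliferation medium with fetal bovine and horse serum. The labels name 3 young populations (Y1-1, PtC5 and FT-QU, called young 1 to 3) and 3 old ones (O1-1, NA-f2 and NA-f3, called old 1 to 3), with 1 droplet library of the 10x Genomics 3′ type for each. No treatment or genetic change is given for any of the 6, and age, sex and strain of the mice are not given in the sources used here. The labels number the populations as biological replicates but do not say how many animals stand behind each, so p-values measure the spread between these 6 libraries.

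A cell enters S phase when cyclin E and its kinase CDK2 free the E2F transcription factors from the retinoblastoma proteins, and E2F then switches on the genes for copying DNA. Helicase rings of MCM proteins, loaded onto origins in G1, are started once by CDC45 and the GINS complex. DNA polymerases, the sliding clamp PCNA, nucleotide synthesis and new histones then supply the fork. In muscle progenitors, differentiation begins with myogenin, and the sarcomere proteins follow after the cells have left the cycle.

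Promoter stretches of 4 genes with high RNA in S-phase cells (Dtl, Uhrf1, Casp8ap2 and, from the S sum, Mcm5) and of 2 genes of the mitotic sum (Top2a and Mki67) are shown for the short words they hold. E2F sites were searched as TTTCCCGC, TTTGGCGC, TTTCGCGC and TTTGCCGC, and the cell cycle homology region (CHR), known from promoters of mitotic genes, as TTTGAA, each on both strands, in RefSeq windows (GRCm38.p6) from 250 bases before to 50 after a gene's start. E2F words can overlap one another on opposite strands, as in Mcm5, and the Top2a word is CHR on the opposite strand. The stretches lie upstream of the RefSeq start of their own window, hold 0 bases of an annotated exon (GENCODE vM21) and run 5′ to 3′ on the gene's strand. Uhrf1 has a further RefSeq window (chr17:56303087-56303386), and its printed stretch lies downstream of that window. Capitals mark E2F words in Dtl (chr1:191575545-191575612, minus strand), Uhrf1 (chr17:56304068-56304195, plus), Casp8ap2 (chr4:32615234-32615361, plus) and Mcm5 (chr8:75109300-75109427, plus), and CHR words in Top2a (chr11:99024190-99024272, minus) and Mki67 (chr7:135716412-135716537, minus).
Dtl: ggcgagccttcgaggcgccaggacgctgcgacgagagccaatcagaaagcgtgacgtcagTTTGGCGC
Uhrf1: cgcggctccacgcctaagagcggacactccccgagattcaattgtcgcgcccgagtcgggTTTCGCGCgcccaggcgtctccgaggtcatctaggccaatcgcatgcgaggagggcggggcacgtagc
Casp8ap2: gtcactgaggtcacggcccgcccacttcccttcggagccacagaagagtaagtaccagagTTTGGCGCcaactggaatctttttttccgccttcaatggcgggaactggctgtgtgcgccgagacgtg
Mcm5: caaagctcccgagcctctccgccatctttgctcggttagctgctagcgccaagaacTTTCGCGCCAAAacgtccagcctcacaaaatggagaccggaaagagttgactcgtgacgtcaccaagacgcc
Top2a: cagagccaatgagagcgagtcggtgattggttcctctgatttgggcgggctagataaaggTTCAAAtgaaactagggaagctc
Mki67: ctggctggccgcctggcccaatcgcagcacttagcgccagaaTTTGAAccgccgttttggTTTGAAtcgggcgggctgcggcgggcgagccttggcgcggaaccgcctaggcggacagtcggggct

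Each population contributed members, from 379 to 1976 cells. They made up 7.40%, 7.81% and 18.6% of the kept cells in young 1, 2 and 3 and 17.8%, 4.45% and 9.65% in old 1, 2 and 3. The intervals of counting error were narrow beside these differences: the widest (95%, Wilson), in old 1, ran from 17.0% to 18.6%. Young 3 and old 1 stood above the rest, and the age groups overlapped. The mean was 11.3% ± 6.34 (SD, n = 3) in young and 10.6% ± 6.72 (SD, n = 3) in old populations, a difference of -0.637 percentage points (two-sided exact permutation p = 0.9, adjusted 0.9 over 2 comparisons), where the smallest p the design allows is 0.1. Without young 3 the difference was 3.02 points and without old 2 it was 2.45 points. With all 6 populations it was 0.0192 points at an S sum of at least 12 and 0.285 points at a mitotic limit of 8, so its sign depended on single populations and on the limits.

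**Figure D1:**
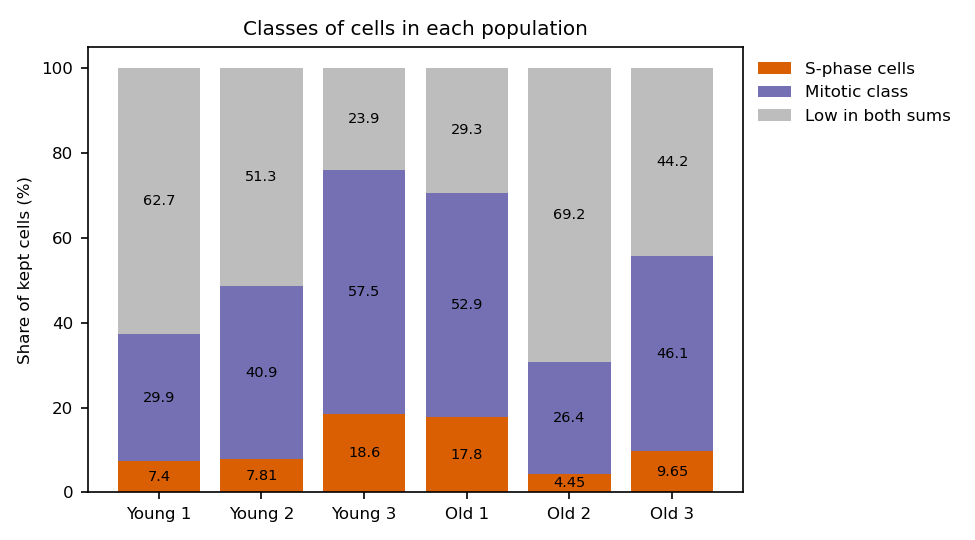
Share of kept cells (%) in each of the 3 classes for the 6 populations, as stacked bars that sum to the whole. S-phase cells range from 4.45% in old 2 to 18.6% in young 3, and the populations with the largest mitotic class (57.5% in young 3 and 52.9% in old 1) also hold the largest S-phase shares.

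Depth bears on the count of members. When each cell was thinned to 5000 UMIs before the rule was applied, the shares became 10.2%, 10.5% and 19.9% for young 1 to 3 and 20.4%, 7.58% and 11.7% for old 1 to 3. Members as a share of S-phase and mitotic cells together came to 19.8%, 16.0% and 24.4% for young 1 to 3 and 25.2%, 14.4% and 17.3% for old 1 to 3. These gave 20.1% ± 4.20 (SD, n = 3) against 19.0% ± 5.56 (SD, n = 3), a difference of -1.12 points (exact permutation p = 0.8, adjusted 0.9). It turned to 1.05 without young 3, 1.15 without old 2 and 0.5001 with a mitotic limit of 8. The rule cuts a continuum: 854 members (12.7%) had an S sum of 8 to under 9, and 973 cells lay just outside at 7 to under 8. On the mitotic side 611 members had sums of 14 to under 15 and 540 cells with enough S RNA lay at 15 to under 16. The mitotic class itself holds many cells over the S limit, 33.0%, 34.7% and 34.0% of it for young 1 to 3 and 49.2%, 36.8% and 39.5% for old 1 to 3.

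**Figure D2:**
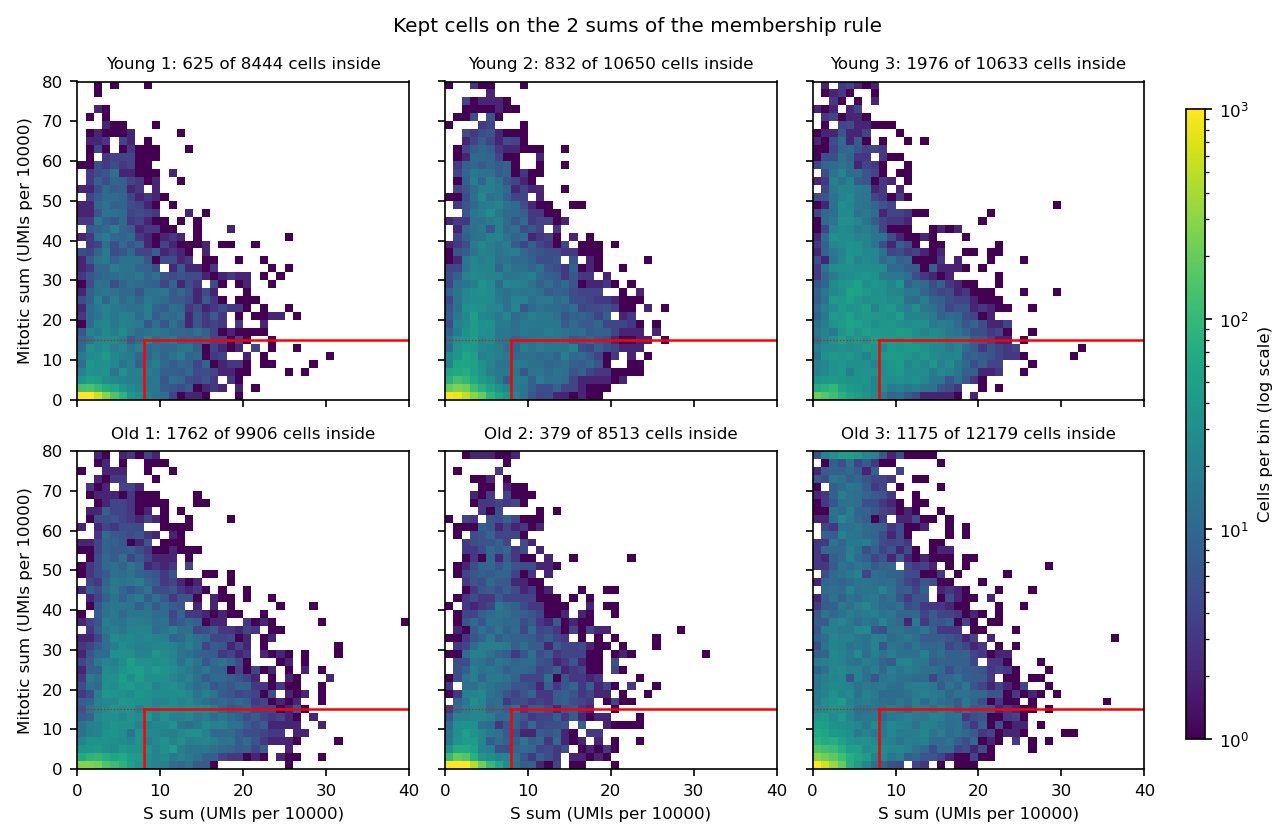
Kept cells of each population by S sum (x) and mitotic sum (y), both in UMIs per 10000, with the number of cells per bin on a log colour scale; sums past 40 and 80 are drawn in the last bin. The red lines enclose the members, and no gap in the cells follows either line.

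The 10 S genes were higher in members than in other cells of every population, which the rule itself sets, and their levels are given as a description. Pcna, the sliding clamp, had, in UMIs per 1000000 of the summed class (CPM), members' levels of 347, 256 and 281 in young and 282, 296 and 335 in old populations, against 90.6 to 155 in other cells. Cdc6, the loader of the MCM rings, stood at 34.7, 49.2 and 51.8 in young and 47.2, 54.6 and 50.5 in old members, against 4.00 to 11.8 in other cells. Ccne2, a cyclin E, had the widest range of the 10 S genes between populations, from 76.4 CPM in old 2 to 189 in old 1. Mki67, a proliferation gene that is part of the mitotic sum and so bounded by the rule, was at 22.9 to 52.2 CPM in members, between the low cells (4.09 to 22.2) and the mitotic class (87.0 to 168).

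The genes outside the rule were then tested. UMIs were summed over the members and over the other cells of each population, and the 12 sums were compared within populations with edgeR's quasi-likelihood test. A gene was called when its Benjamini-Hochberg adjusted p was under 0.05, its log2 fold change was at least 0.5 in size and its sign was the same in 6 of 6 populations. Of 14367 genes, 431 (3%) were higher and 438 (3.05%) were lower in S-phase cells, with a median log2 fold change of -0.05. Members were picked by genes of the same phase, so a call says that a gene goes with the gate and not that it was found independently of it. Other settings named with the lists had their own background: with the mitotic limit at 8, 314 of 14353 genes were higher and 338 lower, with an S sum of at least 12, 554 of 14270 were higher and 476 lower, with thinned cells 291 of 14380 were higher and 287 lower, and without old 1, 519 of 14541 were higher and 485 lower. The members were also compared with each of the other classes alone, over 13404 genes. Against cells low in both sums 1060 genes (7.91%) were higher and 907 (6.77%) lower, and against the mitotic class 252 (1.88%) were higher and 306 (2.28%) lower.

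Origin licensing genes were higher in S-phase cells for 9 of the 12 tested, with none lower and a median log2 fold change of 0.99. Mcm10, a replisome scaffold, had 22.0, 29.3 and 30.8 CPM in young and 25.7, 19.6 and 23.2 CPM in old S-phase cells. In other cells it had 6.01, 7.04 and 14.9 CPM in young and 12.8, 4.35 and 6.18 in old populations, so no S-phase value fell among those of other cells. The log2 fold change was 1.60 (SE 0.19, edgeR adjusted p = 0.0015). Orc1, the origin recognition subunit that comes and goes with the cycle, rose by 1.55 (SE 0.17), whereas the subunits Orc3, Orc4 and Orc5 were not called and had log2 fold changes of 0.04, 0.03 and 0.17. The MCM ring members outside the rule rose too, Mcm3 by 1.44 (SE 0.18) and Mcm7 by 0.95 (SE 0.12). So did both the loader Cdt1 (1.12, SE 0.17) and Gmnn (1.16, SE 0.15), which encodes geminin, the inhibitor of Cdt1. Compared with the mitotic class alone, 6 of the 12 were higher and none lower, with a median of 0.51, where 1.88% of all genes were higher.

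Fork proteins were higher for 13 of 14 genes, with a median of 0.88. Wdhd1, which ties the helicase to polymerase alpha, rose by 1.64 (SE 0.19), the fork protection gene Timeless by 1.46 (SE 0.23) and Mms22l, which handles stalled forks, by 1.37 (SE 0.16). Cdc45, the helicase activator, had 29.1, 71.5 and 48.2 CPM in young and 33.0, 48.7 and 58.7 CPM in old S-phase cells. Each exceeded the other cells of its own population (10.2, 48.6 and 28.0 in young, 23.4, 24.4 and 26.9 in old), and the log2 fold change was 0.85 (SE 0.12, edgeR adjusted p = 0.0014). The exception was Dbf4, the activator of the CDC7 kinase, at -0.27 (SE 0.08) against other cells. It was higher than in low cells (1.18) and lower than in the mitotic class (-0.98). With the mitotic limit at 8, 8 of the 14 were higher and 1 lower, with a median of 0.66. At the main limits, 4 of the 14 were higher than in the mitotic class and 1 was lower, with a median of 0.39.

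Of 30 genes for polymerases, clamp loaders and strand processing, 19 were higher and none lower, with a median of 0.77. The largest change was in Ung (chr5:114130386-114139323), a uracil-DNA glycosylase that removes uracil from new DNA. Ung had 9.53, 40.6 and 29.8 CPM in young and 22.6, 50.4 and 37.1 CPM in old S-phase cells. In other cells it had 1.30, 4.26 and 6.41 CPM in young and 3.89, 5.61 and 4.28 in old populations. Every S-phase value was above every value of other cells, and the log2 fold change was 2.82 (SE 0.15, edgeR adjusted p = 1.3e-05). At 5000 UMIs per cell, Ung was seen in 5.44%, 15.5% and 13.3% of young and 11.9%, 21.9% and 17.9% of old S-phase cells, against 0.554% to 2.50% of mitotic and 0.832% to 4.41% of low cells. Without thinning 13.1% to 57.3% of S-phase cells had an Ung UMI. Atad5, which unloads the clamp, rose by 1.72 (SE 0.12), the nuclease Dna2 by 1.71 (SE 0.16) and the single-strand binding subunit Rpa2 by 1.50 (SE 0.14). Pclaf, a PCNA-binding factor, was not called (0.49, SE 0.20). Of the 30 genes, 10 were higher than in the mitotic class and none lower, with a median of 0.28.

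Of 17 nucleotide supply genes 6 were higher and none lower, with a median of 0.43. The kinase Dck rose by 1.15 (SE 0.11), the purine enzyme Ppat by 1.01 (SE 0.07) and the pyrimidine enzyme Umps by 0.89 (SE 0.09). Thymidylate synthase, Tyms, had 96.7, 121 and 128 CPM in young and 113, 149 and 111 CPM in old S-phase cells, against 52.2, 80.8 and 106 in young and 114, 89.4 and 80.7 in old other cells. Old 1 was the population in which it was not higher, and with a log2 fold change of 0.45 (SE 0.11) it missed the fold and sign criteria. Against low cells alone, 14 of the 17 were higher, Tyms by 1.54 and thymidine kinase Tk1 by 2.36. Against the mitotic class only Ppat was (0.83). With the mitotic limit at 8, 5 were higher than in other cells and the median was 0.17.

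Histone supply and chromatin assembly genes were higher for 11 of 14, with a median of 0.88. Compared with the mitotic class alone, 8 of the 14 were higher and 1 was lower, with a median of 0.53. Hells (chr19:38930915-38971051), a chromatin remodeller needed for DNA methylation, had 175, 139 and 166 CPM in young and 192, 116 and 121 CPM in old S-phase cells. Other cells had 42.9, 33.9 and 69.5 CPM in young and 84.9, 22.0 and 28.8 in old populations, all lower, which gave a log2 fold change of 1.77 (SE 0.19, edgeR adjusted p = 0.0016). Chaf1b, of the chromatin assembly factor, rose by 1.61 (SE 0.20), Uhrf1, the reader of half-methylated DNA, by 1.53 (SE 0.18) and Slbp, which binds histone messages, by 1.15 (SE 0.10). The replication-dependent histone genes themselves were called in few cases, 6 higher and 1 lower of 62, with a median of 0.29. Their messages mostly lack the poly(A) tail that the 3′ kit primes on, and near-identical copies could share reads, so single members are uncertain. Against low cells 46 of 61 were higher, with a median of 1.26, and against the mitotic class none was higher, 1 was lower and the median was -0.17. With old 1 left out 22 of them were called higher than in other cells, and with the mitotic limit at 8 instead of 15 the split turned to 1 higher and 6 lower of 61, with a median of -0.35, against 519 of 14541 higher over all genes without old 1 and 314 higher and 338 lower of 14353 at the limit of 8.

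Among 26 regulators of the G1/S step, 12 were higher and none lower, with a median of 0.40. Ccne1 (chr7:38097984-38107534), a cyclin E, had 86.5, 80.4 and 125 CPM in young and 73.7, 85.4 and 109 CPM in old S-phase cells. Other cells had 18.3, 19.4 and 55.9 CPM in young and 24.7, 21.8 and 31.5 in old populations, all below the S-phase values, and the log2 fold change was 1.75 (SE 0.14, edgeR adjusted p = 0.00031). The activator E2f1 rose by 1.17 (SE 0.10) and E2f7, a repressor of the same targets, by 1.59 (SE 0.18). Myb, a transcription factor of cycling progenitors, rose by 2.45 (SE 0.19) from a low level, with 1.94 to 4.35 CPM in S-phase cells. Cyclin D1, Ccnd1, which acts in G1, had 498, 186 and 401 CPM in young and 805, 424 and 395 CPM in old S-phase cells and 515, 127 and 402 CPM in young and 777, 325 and 306 CPM in old other cells. It was not called (0.18, SE 0.10), nor were Ccnd2, Ccnd3, Cdk4, Cdk6 and Rb1, which lay between -0.13 and 0.22. Cyclin A, Ccna2, was higher than in low cells (2.22) and lower than in mitotic cells (-1.30). Of the 26 regulators, 8 were higher than in the mitotic class and 1 was lower, with a median of 0.29.

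Checkpoint and fork repair genes were higher for 21 of 30, with a median of 0.71 and none lower. Dtl (chr1:191537356-191575544), a ubiquitin ligase adaptor that removes Cdt1 in S phase, had 35.0, 57.8 and 72.0 CPM in young and 51.0, 45.9 and 57.0 CPM in old S-phase cells. Other cells had 6.59, 11.9 and 25.8 CPM in young and 16.8, 6.49 and 11.6 in old populations, and no value reached the S-phase range. This was a log2 fold change of 2.08 (SE 0.19, edgeR adjusted p = 0.00069). The nuclease Exo1 rose by 1.71 (SE 0.22), the mismatch repair gene Msh6 by 1.43 (SE 0.17) and the checkpoint kinase Chek1 by 1.36 (SE 0.17). With the mitotic limit at 8, 12 of the 30 were called, against 314 of 14353 genes higher in all. At the main limits, 7 of the 30 were higher than in the mitotic class and 1 was lower, with a median of 0.16. Of 13 cohesin genes none was called in either direction against other cells, and 7 were higher than in low cells, among them Esco2, which acetylates cohesin during replication (3.33). Against the mitotic class none of the 13 was higher and 1 was lower, with a median of -0.14.

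**Figure D3:**
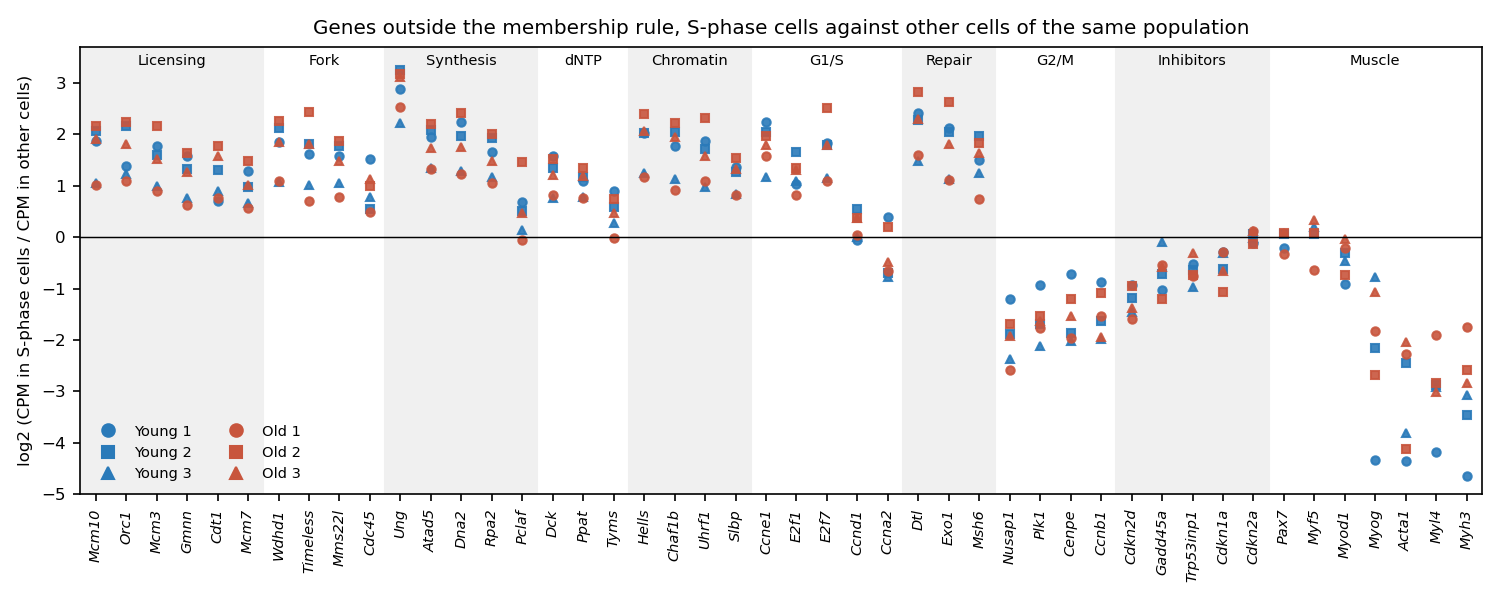
Log2 ratio of CPM in S-phase cells to CPM in other cells of the same population, 1 point per population (blue for young, red for old), for genes outside the rule grouped by role; a population with 0 counts has no point. Called replication genes lie above 0 and mitotic and sarcomere genes below 0 in all 6 populations, Cdkn2a lies near 0 in all 6, and Pax7, Myf5 and Ccnd1 have points on both sides of 0.

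Outside these lists, and among genes with a mean of at least 20 CPM, the called genes with the largest rises were Wdr76 (1.80, SE 0.15), Zfp367 (1.67, SE 0.15), Casp8ap2 (1.30, SE 0.09), Aunip (1.25, SE 0.20) and Zmynd19 (1.19, SE 0.05), followed by Rif1, Atad2 and Ctdspl. Casp8ap2 encodes a factor of histone gene transcription, and Rif1 encodes a regulator of replication timing. Zmynd19 had nearly the same level in every population, from 52.5 to 70.8 CPM in S-phase cells and from 23.1 to 34.3 in other cells. Called in both class comparisons were 159 genes higher in S-phase cells than in either class, which is 63.1% of those higher than the mitotic class and 15% of those higher than low cells. By the smaller of both fold changes the order began with Ung (2.59 against low and 2.97 against mitotic cells), Myb (3.49 and 1.92) and Dtl (2.41 and 1.73), and Ccne1 was at 2.18 and 1.41. A further 119 genes were higher than in low cells and lower than in mitotic cells.

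Mitotic genes outside the rule were part of the second pattern. Against all other cells 17 of 28 were lower and none higher, with a median of -0.68. Against low cells 27 of the 28 were higher, and against the mitotic class all 28 were lower. Nusap1, a spindle microtubule protein, had 15.8, 12.3 and 10.2 CPM in young and 14.6, 7.70 and 13.8 CPM in old S-phase cells, against 36.4, 45.2 and 52.8 CPM in young and 87.0, 24.7 and 52.5 in old other cells. It was lower by -2.04 (SE 0.17, edgeR adjusted p = 0.00033). The mitotic kinase Plk1 fell by 1.69 (SE 0.11), the kinetochore motor Cenpe by 1.63 (SE 0.18) and cyclin B1, Ccnb1, by 1.58 (SE 0.16). The upper limit on the mitotic sum bears on these directly: at 8 it gave 25 lower with a median of -1.34, and with an S sum of at least 12 there were 11 lower. Outside the lists, and with a mean of at least 20 CPM, the kinesin genes Kif2c and Kif20a fell by 1.58 (SE 0.13) and 1.24 (SE 0.09). Each was higher than in low cells. Arl6ip1, an endoplasmic reticulum protein, fell by 1.25 (SE 0.07), at -0.21 against low and -1.84 against mitotic cells. Kdm5b, a histone H3 lysine demethylase, was lower than in both classes (-1.58 against low and -0.75 against mitotic cells). It had 9.85, 12.2 and 18.7 CPM in young and 17.2, 9.53 and 11.3 CPM in old S-phase cells, all below the 23.2 to 37.5 CPM of other cells. Pimreg, a mitotic regulator, fell by 1.12 (SE 0.19) and was higher than in low cells (1.51). Among genes with a mean of at least 20 CPM, the largest fall outside the lists was in Bex1 (-1.88, SE 0.09), whose mean was set mostly by old 3. It had 157 CPM in old 3, 12.3 in old 2 and at most 0.598 in the other 4 populations' S-phase cells, against 551 and 48.8 in the other cells of old 3 and old 2. The muscle genes Pgam2, a phosphoglycerate mutase, and Cacng1, a calcium channel subunit, fell by 1.60 (SE 0.12) and 1.21 (SE 0.17). Both were lower than in low cells (-2.50 and -1.89), and neither was called against the mitotic class.

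The promoter words were counted over the same lists, as a description. Of 338 genes called higher with a RefSeq window, 65 (19.2%) held an E2F word, against 9 of 343 (2.62%) called lower, 4.32% of all tested genes and 2.61% of all 27025 promoters. By list, E2F words were found in 6 of 11 licensing, 9 of 25 polymerase, 7 of 19 G1/S, 4 of 12 histone supply, 5 of 20 checkpoint and repair, 1 of 9 fork and 1 of 15 nucleotide supply genes, in 2 of 24 mitotic genes, and in 4 of the 7 S genes of the rule with a window. With the first window of each gene alone, the counts were 2 of 12 histone supply, 8 of 25 polymerase and 59 of 338 called higher genes (17.5%). The other lists kept their counts. Uhrf1 also has a window with 0 E2F words. For Ung, Ccne1 and E2f1 these letters are not in the window. CHR was found in 17 of 24 mitotic genes (70.8%), 4 of 9 fork, 4 of 12 histone supply, 6 of 19 G1/S, 3 of 15 nucleotide supply, 2 of 25 polymerase, 2 of 20 checkpoint and repair and 0 of 11 licensing genes, and in 20.2% of all promoters. Among all genes called lower it was in 77 of 343 (22.4%), against 50 of 338 called higher (14.8%) and 14.6% of all tested genes.

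Inhibitors of the cycle and p53 targets were lower for 6 of 20 genes and higher for none, with a median of -0.32. Cdkn2d, an inhibitor of the cyclin D kinases whose RNA varies through the cycle, fell by 1.31 (SE 0.08); it was lower than in mitotic cells (-1.90) and at -0.10 against low cells. Cdkn1a, the p53-driven inhibitor p21, had 300, 372 and 104 CPM in young and 348, 844 and 74.1 CPM in old S-phase cells. Other cells had 368, 572 and 128 CPM in young and 425, 1759 and 117 CPM in old populations, each above its own S-phase value. The log2 fold change was -0.57 (SE 0.12, edgeR adjusted p = 0.017). The call was lost without young 2, old 2 or old 3 and with thinned cells (-0.40). Gadd45a fell by 0.69 (SE 0.15), a call lost without old 3 (edgeR adjusted p = 0.055). With thinned cells 2 of the 20 were called, against 287 of 14380 genes lower in all.

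Cdkn2a, whose products p16 and p19ARF hold the cycle at G1, did not follow these. S-phase cells had 11.4, 13.2 and 7.21 CPM in young and 115, 29.6 and 537 CPM in old populations. Other cells had 12.3, 12.6 and 7.31 CPM in young and 106, 32.6 and 497 CPM in old populations, so each population had nearly the same level in both. The log2 fold change was -0.01 (SE 0.05, edgeR adjusted p = 0.95), and its sign changed with the scaling (0.01). At 5000 UMIs per cell Cdkn2a was seen in 91.0% of S-phase cells of old 3, 87.6% of its mitotic cells and 88.2% of its low cells. In old 1 these shares were 31.4%, 29.9% and 29.8%, and in old 2 they ran the other way, at 10.0%, 11.7% and 12.8%. Without thinning 98.8% of S-phase cells of old 3, 60.3% of those of old 1 and 21.9% of those of old 2 had a Cdkn2a UMI. No cell class lacking the gene was at hand to measure free RNA.

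Of 24 muscle differentiation genes 21 were lower in S-phase cells and none higher, with a median of -1.94, against -0.05 for all genes tested. Against low cells all 24 were lower (median -3.04), and against the mitotic class none was called (median -0.25). Acta1, skeletal actin, had 6.39, 111 and 2.22 CPM in young and 5.14, 16.3 and 494 CPM in old S-phase cells, against 131, 608 and 31.3 CPM in young and 24.9, 282 and 2030.1 CPM in old other cells. It was lower in 6 of 6 populations (-2.95, SE 0.39, edgeR adjusted p = 0.0043). Myl4, an embryonic myosin light chain, fell by 2.99 (SE 0.23) and Myh3, the embryonic heavy chain, by 2.97 (SE 0.23).

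Myog, the transcription factor myogenin, had 1.52, 82.1 and 21.4 CPM in young and 1.99, 28.8 and 467 CPM in old S-phase cells. Other cells had 30.4, 367 and 36.8 CPM in young and 7.03, 184 and 982 CPM in old populations. It fell by 1.80 (SE 0.39, edgeR adjusted p = 0.022), a call lost without young 2, old 1 or old 2 (edgeR adjusted p of 0.066, 0.052 and 0.056) and with the mitotic limit at 8 (0.092). Old 3 had the highest level, and at equal depth 35.1% of its S-phase cells had a Myog UMI, against 38.7% of its mitotic and 55.2% of its low cells (47.8% of S-phase cells without thinning). Free RNA was not measured, and Scrublet called the most cells in old 3 (1265, or 10.4%). These are therefore shares of cells with a UMI and not of cells shown to express Myog. Relative to low cells, Myog in old 3 S-phase cells was at 32.4%, Acta1 at 13.9% and Myl4 at 6.63%, whereas in young 1 they were at 3.4%, 3.4% and 3.8%. Over all 6 populations Myog ran from 3.42% to 32.4%, Acta1 from 2.16% to 13.9% and Myl4 from 3.75% to 10.1%. Of 13 progenitor genes edgeR called 0 in either direction, with a median of -0.23. Against low cells 3 of 12 were lower and none higher, with a median of -0.39: Des, the muscle intermediate filament (-1.39), Cdh15, M-cadherin (-0.77), and Myod1 (-0.70). Pax7, the satellite cell factor, had 8.66, 57.5 and 0 CPM in young and 10.1, 23.8 and 35.2 CPM in old S-phase cells and 9.96, 55.0 and 0.0318 CPM in young and 12.7, 22.6 and 33.3 CPM in old other cells (-0.09, SE 0.08). For young 3, 0 of 1976 S-phase cells had a Pax7 UMI, which allows a share with a UMI of up to 0.152% (3 counts of the total) and sets no limit on cells expressing the gene. Myf5 was at 0.01 (SE 0.13) and Myod1, lower in 6 of 6 populations, at -0.46 (SE 0.13), short of the fold limit.

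Markers of other cell types were not called for fibro-adipogenic (0 of 9), endothelial (0 of 3), immune (0 of 4) or Schwann and neural genes (0 of 5), and of 5 smooth muscle and pericyte genes 2 were lower, Abcc9 and Notch3. Abcc9 had 11 UMIs over all S-phase cells, with 0 in 2 populations and at most 0.421 CPM. Both calls were lost with a mitotic limit of 8 and with thinned cells (0 of 5 each), and the count was 1 with at least 10000 UMIs, without old 1 or without old 3. The summed immune markers were 1.56 to 5.09 CPM in S-phase cells and 1.58 to 8.51 in other cells, with Adgre1, Cd3e and Tyrobp at 0 in all 6. Cldn5 was at 0 in all 6 as well, and so was Lum of the fibro-adipogenic list. Summed, that list was at 268 to 519 CPM in S-phase cells and 285 to 511 in other cells. In S-phase cells its member Gsn had 144 to 288 CPM, Col3a1 19.8 to 130 and Ly6a 5.63 to 156. Cd34 had 7.15 to 126 CPM and Smoc2 1.69 to 106. Pdgfra had 0.0647 to 2.35 CPM and Dcn 0.217 to 1.02. Of the 12 genes of that list, 5 stayed under 1 CPM in the S-phase cells of all 6 populations. Summed endothelial markers were 0.325 to 62.7 CPM in S-phase cells and 0.550 to 59.0 in other cells, and the highest value, in young 2, was nearly all Tek (62.3 CPM). Of 81 ribosomal protein genes and 13 mitochondrial genes none was called.

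RNA content was compared as the ratio of median UMIs per cell, with the rule applied to thinned cells. Against all other cells it was 0.973, 1.08 and 0.908 in young and 0.926, 0.994 and 0.984 in old populations, lower in 5 of 6, with a geometric mean of 0.976 (exact sign-flip permutation p = 0.3125, adjusted 0.3125). The log2 ratio, -0.03, was -0.06 without young 2 (exact permutation p = 0.0625) and -0.01 without young 3. Against low cells it was 1.06, 1.17 and 1.14 in young and 1.09, 1.02 and 1.10 in old populations, with a geometric mean of 1.10, higher in 6 of 6 (exact permutation p = 0.031, adjusted 0.0469 over 3 comparisons). Against mitotic cells it was 0.857, 0.916 and 0.830 in young and 0.850, 0.901 and 0.860 in old populations, with a geometric mean of 0.868, lower in 6 of 6 (exact permutation p = 0.031, adjusted 0.0469). S-phase cells therefore lay between the other classes in UMIs. With any 1 population left out the smallest possible p is 0.0625.

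Members also differed among themselves along the mitotic sum. In the median population 11.3% of members had a mitotic sum under 3, 33.5% had 3 to under 8 and 55.5% had 8 to under 15, and median UMIs per cell rose over these bins from 12516 to 14517. Values follow as medians over the 6 populations and as a description, since the bins are cut on rule genes. Ccna2 went from 10.6 to 30.3 to 56.4 CPM, Pclaf from 119 to 318 to 497 and the histone gene Hist1h2ap from 41.1 to 144 to 406, each higher in the last bin than in the first in 6 of 6 populations. Tyms went from 64.7 to 132 CPM and Tk1 from 22.8 to 73.7 between the first and last bins, also in 6 of 6. Dtl ran otherwise, at 54.9, 61.7 and 48.0 CPM. Mcm4 (120, 117 and 116 CPM) and Cdt1 (53.9, 58.8 and 53.8) stayed close to 1 level, and Ccnd1 was lower in the last bin than in the first in 5 of 6. Summed differentiation genes were higher in the first bin than in the last in 6 of 6 populations (1287 against 808 CPM).

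**Figure D4:**
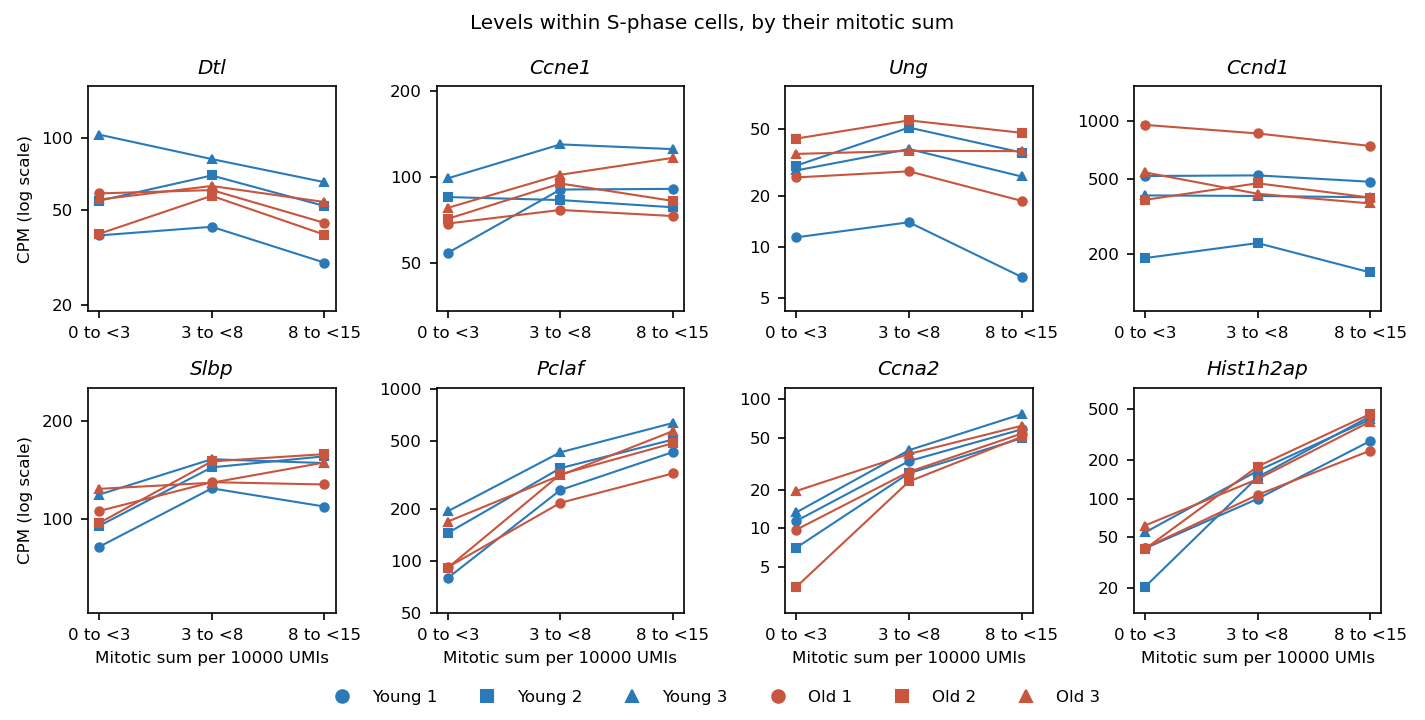
CPM (log scale) of 8 genes within S-phase cells, in 3 bins of the mitotic sum per 10000 UMIs, with 1 line per population. Pclaf, Ccna2 and Hist1h2ap climb in every population, whereas Dtl, Ung and Ccnd1 climb through all 3 bins in none of the 6 and Ccne1 in 2.

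Within S-phase cells, old and young populations were compared over 11910 genes with the gene list of the matrix as a term. No gene was called in edgeR, higher (0%) or lower (0%), at an adjusted p under 0.05; 388 had an unadjusted p under 0.05 and the smallest adjusted p was 0.16. DESeq2 called 71 higher and 15 lower, and edgeR called 7 higher without young 2 and 6 higher and 2 lower without young 3. The groups did not overlap for 687 genes (5.77%). The biological coefficient of variation was 0.443 here and 0.0689 in the comparison within populations. Whether the difference between S-phase and other cells depended on age was tested as an interaction over 14367 genes, and 0 were called in either direction (0% each) by edgeR or DESeq2, with 294 and 125 at an unadjusted p under 0.05. With old 1 left out edgeR called 1 lower and with old 3 left out 1 higher.

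The S genes are given as levels, since members were selected on a sum that contains them and a gene's difference is seen at a summed level the rule constrains. Gins2, a helicase activator subunit, had 85.2, 79.6 and 86.5 CPM in young and 58.3, 69.3 and 63.5 CPM in old S-phase cells, 83.8 ± 3.69 (SD, n = 3) against 63.7 ± 5.51 (SD, n = 3). All old values were below all young ones (log2 fold change -0.46, SE 0.20). Rrm2, the small subunit of ribonucleotide reductase, had 224, 271 and 212 CPM in young and 278, 303 and 309 CPM in old S-phase cells, with no overlap in the other direction (0.27, SE 0.22). The other 8 S genes of the rule overlapped between the age groups. Over all 11910 genes tested, 687 (5.77%) did not overlap, and edgeR called neither Gins2 nor Rrm2. With 3 populations on each side no exact permutation p can fall below 0.1, so separation alone does not show an age difference. Cdkn2a did not overlap (4.31, SE 1.25, edgeR adjusted p = 1.0), with old 3 far above the rest and a log2 fold change of 2.20 without old 3, and its difference was the same in S-phase and other cells within error (interaction 0.06, SE 0.11). Ccne1, Ccnd1, Cdkn1a, Myog and Pax7 overlapped between the groups.

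**Figure D5:**
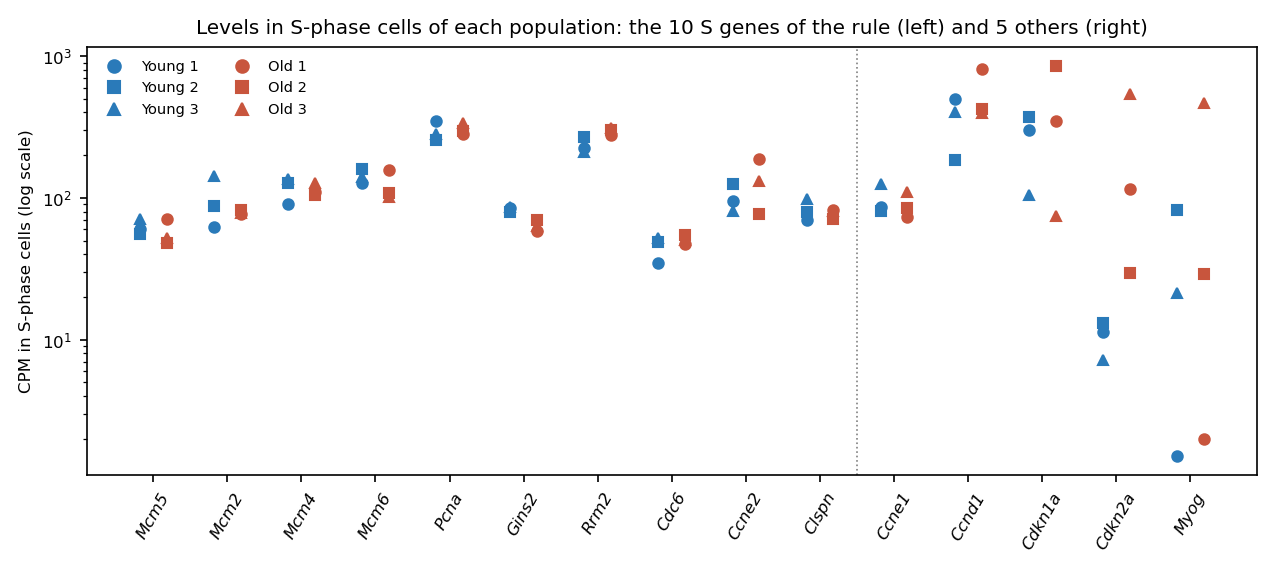
CPM in S-phase cells (log scale) of the 10 S genes of the rule, left of the dotted line, and of 5 other genes, with 1 point per population (blue for young, red for old). Gins2 is lower and Rrm2 higher in every old population, within a sum that the rule holds above its limit, and Cdkn2a and Myog range from single digits to 537 and 467 CPM.

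Depth and library facts touch all of these values. Median UMIs per kept cell ran from 13181 to 20111 by population, and those of members from 12944 to 20005. Pairs of libraries shared 22 to 35 barcodes, and 417 of 59905 distinct barcodes (0.696%) occurred in 2 or more. The matrices of young 1 and old 1 hold a shorter gene list (21849 features) than those of the other 4 (32285). The class sums and CPM used the 21485 shared identifiers. UMIs per cell, the cell limits and the S and mitotic sums of single cells were taken before this cut, on each matrix's own list. Shares and depths are therefore compared across unlike lists, and the effect of this on them was not tested.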

How the data were processed

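Each of the 6 populations has 1 deposited matrix of UMI counts per gene and cell, made by the authors with Cell Ranger (7.0.0 per the file headers of young 1 and old 1, 7.2.0 per those of the other 4). The submitters' processing notes name Cell Ranger 7.2.0 and the build mm10, and the gene annotation release is not given in the sources used here. Counts were read with Python 3.11.15 and scanpy 1.11.5, and 2520 barcodes under 5000 UMIs and 4 with 15% or more mitochondrial UMIs were left out. Cells were classed by the 2 sums and their counts were summed by population and class over 21485 shared genes. Levels per 1000000 UMIs (CPM) use these sums.

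The quasi-likelihood test of edgeR 4.0.16 (R 4.3.3) was run on the sums after filterByExpr and with TMM factors. Population was a term for comparisons between classes, and gene list of the matrix was a term for old against young. The code was checked on simulated counts. For old against young these varied less than the data (biological coefficient of variation 0.443), so the check does not show how that test performs here. Single values were tested by exact permutation with scipy 1.17.1. DESeq2 1.42.0 and other cell limits, filters, scalings and left-out populations were alternatives. Scrublet called 3, 625, 2, 0, 3 and 1265 cells in young 1 to 3 and old 1 to 3. That is under 0.5% in 4 libraries, so its calls were not used, and leaving out the 8% of cells with the highest scores was an alternative. Median UMIs per kept cell of 13181 to 20111 set the precision of single-cell values, and intervals cover counting error only. Named genes are up to 4 called members per list by size of fold change, a set of cycle and muscle genes whatever their values, and, outside lists, 8 called genes in each direction with a mean of at least 20 CPM. Other list members are given as examples of genes that were not called, or of members called, and were chosen after their values were seen. The membership rule and the gene lists were chosen with earlier results of these data known. Gene positions are from GENCODE vM21 (GRCm38), and promoter sequences are from RefSeq on GRCm38.p6. A member of the nucleotide supply list is not reported here by name.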

Additional observations from a re-analysis of the deposited data

How the results depend on the processing

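The old minus young difference in the share of S-phase cells (-0.637 percentage points) changed sign with an S sum of at least 12 (0.0192), a mitotic limit of 8 (0.285), no mitotic limit (2.78, chosen after seeing the data) and the 2 populations on the shorter gene list (10.4, 1 against 1), was -6.15 in the 4 on the longer list, and ran from -4.22 to 3.02 with 1 population left out. The difference in members as a share of S-phase and mitotic cells together (-1.12) turned to 0.5001 with a mitotic limit of 8 and 5.35 on the shorter list. It was -4.35 on the longer list, and ran from -4.22 to 1.15 with 1 population left out. The log2 ratio of UMIs per cell, 0.13 against low and -0.20 against mitotic cells, ran from 0.11 to 0.15 and from -0.22 to -0.19, with exact permutation p = 0.0625, the smallest that 5 populations allow; this comparison was added after seeing the data. With the adjusted p as the sole criterion edgeR called 1905 genes higher and 2668 lower than in other cells, 2855 and 4445 against low cells, and 1167 and 1854 against mitotic cells. With thinned cells 287 were lower than in other cells. Old against young gave 71 higher and 15 lower in DESeq2, 3 higher with no filter, and 0 to 7 higher and 0 to 2 lower with 1 population left out; the interaction gave 0 to 1 in each direction.

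Of 1155 values for 77 genes against other cells 1100 kept direction and call, 33 lost the call, 7 gained it and 15, in 5 genes, changed sign. Hist1h2an turned to -0.20 and Pclaf to -0.14 with a mitotic limit of 8. Cdkn2a turned to 0.014 with RLE scaling, 0.016 in DESeq2, 0.033 with an S sum of at least 12 and 0.019 with at least 10000 UMIs, and ran from -0.044 to 0.029 with 1 population left out. Pax7 turned to 0.095 (S sum of at least 12) and 0.061 (mitotic limit of 8). Myf5 turned to -0.0067 with no filter and -0.023 with thinned cells, and ran from -0.062 to 0.14 with 1 population left out. For old against young, Cdc6 turned to -0.0078 with a mitotic limit of 8, and Pcna to -0.00069 with no filter, -0.028 with thinned cells, -0.027 with no gene list term and -0.0084 with a mitotic limit of 8. With 1 population left out, Pcna ran from -0.17 to 0.29, Mcm4 from -0.20 to 0.034, Cdkn1a from -0.91 (without old 2) to 1.14, Myog from -0.51 (without old 3) to 2.37 and Pax7 from -0.59 (without young 3) to 3.83. The cause of these changes was not tested.

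The replicate numbers are shared between age groups. The correlations of same-numbered populations were 0.472, 0.231 and -0.0688, against -0.461 to 0.339 for young and old populations with unlike numbers. The highest, 0.472, was that of young 1 and old 1, which share the shorter gene list. So few values cannot decide whether the numbers pair the populations. With the replicate number as a block the share differences stayed at -0.637 (exact permutation p = 1) and -1.12 (p = 0.75), where 0.25 is the smallest p, edgeR called 0 genes higher and 0 lower (375 at an unadjusted p under 0.05), and Pcna turned to -0.0023.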
